A study of Mus musculus with 2 samples.

Results

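The replication-dependent histone cluster genes encode the bulk histones that package newly replicated DNA. They were examined here in a Tcf3 chromatin immunoprecipitation on promoter microarrays. Members were the non-control probes whose array gene name starts with Hist1h, Hist2h, Hist3h or Hist4h, alone or in a hyphen-joined pair. This rule used names only and found 1013 of 474380 probes, which name 61 of 17097 genes. Of these, 133 probes and 9 genes lay on the first array, and 880 probes and 52 genes on the second.

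The cells were E14 mouse embryonic stem cells, an established line, grown without feeders and with no treatment named. In each of the 2 hybridisations, amplified immunoprecipitated DNA was labelled with Cy5 and input DNA with Cy3, and both sample titles name Tcf3. The protocols name antibodies to several proteins and do not say which of them was used for these arrays. The arrays carry different probes (0 were shared), so each histone gene was measured once, with no replicate, no control immunoprecipitation and no test between conditions. Every spread given below is over neighbouring probes or over genes, and not an error between experiments.

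Replication-dependent histone genes are short, lack introns, and are transcribed during S phase into messages that end in a stem-loop instead of a poly(A) tail. Many H2A and H2B genes stand head to head and share a divergent promoter. The linker histone H1 binds outside the nucleosome, whose core is made of H2A, H2B, H3 and H4. Tcf3 (Tcf7l1), an HMG-box protein related to Lef1, acts in embryonic stem cells mostly as a repressor at the end of the Wnt pathway.

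Histone probes called as enriched were few, and their sequences are given first. A ratio is given throughout as log2 of Cy5 over Cy3, centred on the median of the array's non-control probes, so that 0 is the array median and 1 is a 2-fold higher ratio. The probes below are shown because they are the only histone probes called as enriched with measured spots, before or after a GC correction, as described next. The last line is the higher neighbour in the set of the single called Hist3h2ba probe. Capitals mark a Tcf/Lef core (CTTTGAA or CTTTGAT or CTTTGTA or CTTTGTT, on either strand). Positions are those of the array annotation, of unstated genome build, and the strand is that of the deposited probe.
Hist1h1b, chr13:21144470-21144529: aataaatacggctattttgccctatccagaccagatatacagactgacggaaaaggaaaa
Hist1h1b, chr13:21145209-21145253: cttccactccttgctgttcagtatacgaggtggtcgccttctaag
Hist1h3i, chr13:21152639-21152698: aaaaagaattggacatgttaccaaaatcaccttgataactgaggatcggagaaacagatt
Hist1h3i, chr13:21152772-21152831: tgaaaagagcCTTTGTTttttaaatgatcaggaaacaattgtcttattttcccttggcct
Hist3h2ba, chr11:59027288-59027332: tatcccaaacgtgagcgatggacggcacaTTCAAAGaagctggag
Hist3h2ba, chr11:59027930-59027974: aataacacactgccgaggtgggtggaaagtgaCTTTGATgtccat

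No histone gene was called as enriched when all spots were used. A probe was called when the mean of a set, formed by the probe and the closest probes to its left and right up to 1000 bp away, lay far above the scatter seen below the array median, and a gene was called when a called probe named it. The count was 0 of 61 histone genes, against 12.8% of all genes on both arrays. The background differed between the arrays, at 22.0% of genes on the first and 3.53% on the second. All 9 histone genes of the first array, which form the Hist2 cluster on chromosome 3 and Hist4h4 on chromosome 6, were thus without a call where 1891 of 8609 genes had one. The 52 genes of the Hist1 cluster on chromosome 13 and the Hist3 cluster on chromosome 11 lay on the array with few calls. Probe number also differed: 8 histone genes had fewer than 3 probes, and on the second array 0 of 90 genes with so few probes were called.

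The median ratio of histone probes lay below the array median on the first array and near it on the second. On the first array their median was -0.25 (interquartile range -0.61 to 0.08, 133 probes), against an interquartile range of -0.49 to 0.64 for all other probes, and 39 of the 133 were above 0. On the second array the median was 0.08 (-0.45 to 0.74, 880 probes), and 470 of the 880 were above 0. The first-array median stayed below 0 under all the processing alternatives tried, though those that changed only the calling rule could not alter it. The second-array median lay between -0.06 and 0.14. It changed sign with normexp background correction and with the GC trend subtracted from all spots.

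Many high ratios at histone genes came from spots with no measured Cy5. Where a Cy5 signal was not above background, the scanner software had written a surrogate value in its place, and these surrogates were nearly constant, with a median of 172 on the first array and 197 on the second. The ratio of such a spot therefore followed the input signal alone. Surrogates made up 67.7% of the histone probes of the second array, against 51.6% of its other probes, and 21.8% against 30.7% on the first array. Of the second-array histone probes with a surrogate, 143 had a ratio above 1, and none of these had a Cy3 signal above 106. Of the 26 histone genes whose highest set mean was above 1, the set held at least 1 surrogate in 24 and only surrogates in 17. Hist1h3i and Hist1h4a were the 2 genes whose set held none.

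**Figure D1:**
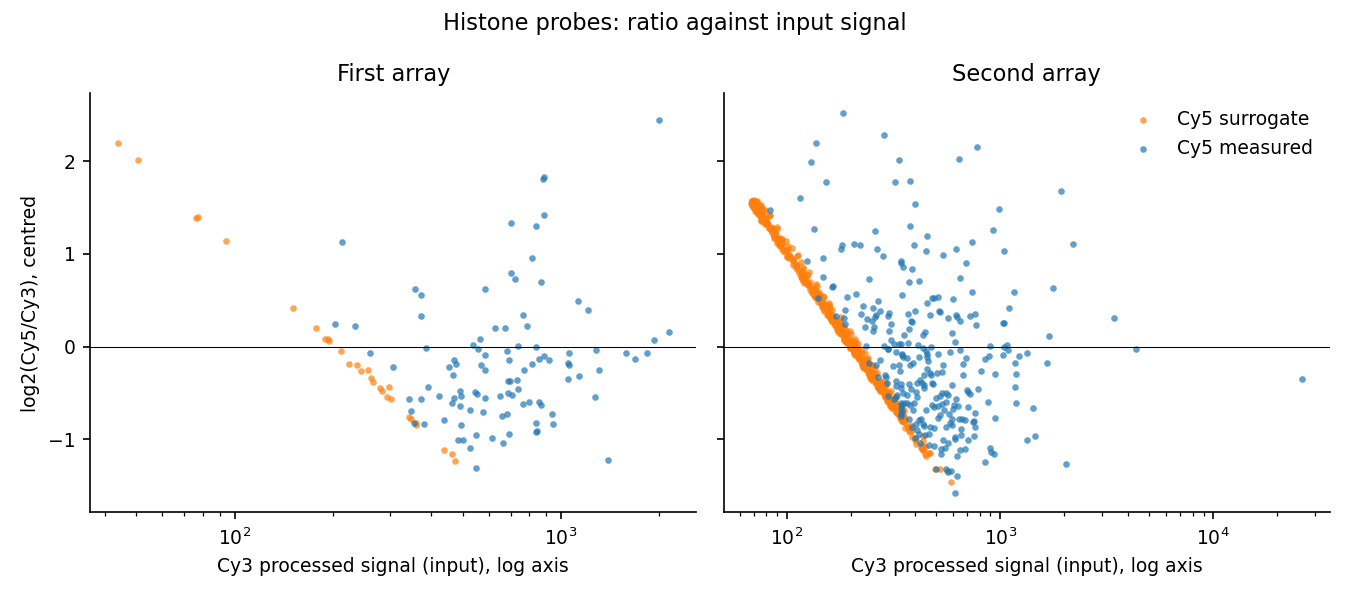
Centred log2 ratio of Cy5 over Cy3 for each histone probe against its Cy3 processed signal (log axis) on the first array (133 probes) and the second array (880 probes), coloured by whether Cy5 was measured or a surrogate. The surrogate spots fall close to 1 line, where the ratio rises as the input signal falls, and reach above 1 only at low input.

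With spots measured above background in both channels, 2 of the 61 histone genes were called, Hist1h1b and Hist1h3i, against 13.1% of all genes (15.7% on the first array and 10.5% on the second). This setting kept 103 histone probes of the first array and 280 of the second, and left Hist1h2an with no probe. It drops spots with low Cy5, and so selects partly on the immunoprecipitated signal itself. With the trend of ratio with GC content also subtracted, Hist1h1b and Hist3h2ba were called, against 12.7% of all genes (18.5% on the first array and 6.91% on the second). Both shares, 2 of 61, are below the background of all genes, but that background is not matched for probe number. With measured spots on the second array, 13 histone genes had fewer than 3 probes, 30 had 3 to 9 and 8 had 10 or more. The shares of all genes called there were 0.704%, 5.16% and 13.4%, and 0.939%, 5.03% and 8.13% with the GC trend also subtracted. A deficit of histone genes was not tested.

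Hist1h3i, a core histone H3 gene, gave the highest set mean of all histone genes with all spots, and its set held no surrogate. Its 3 neighbouring probes read 1.06, 1.78 and 1.78, a set mean of 1.54 ± 0.42 (SD over 3 probes). With measured spots the set means around them were 1.72 ± 0.42 (SD over 3 probes) and 1.96 (2 probes). With the GC trend subtracted the highest was 1.55 ± 0.22 (SD over 2 probes) and the gene was no longer called. These probes carry the Hist1h3i name but lie 436 to 756 bp downstream of the matched start of Hist1h2an, an H2A gene. The single probe of Hist1h2an, named jointly with Hist1h2bp, read -0.66 with surrogate Cy5. Elsewhere on Hist1h3i the ratios went down to -0.35, with a median of 0.19 over its 19 probes.

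Hist1h1b encodes a linker histone H1 and was called in both measured-spot analyses. Its 23 probes ranged from -0.82 to 2.52 with all spots, with a median of 0.10. Among measured spots, the called probes read 2.46 and 2.70 and lay 2115 and 1383 bp downstream of the matched start. The measured probes on either side of them read -0.32 and -0.31. The set mean was 1.62 ± 1.67 (SD over 3 probes), so the spread over the set was as large as its mean. Between the called probes, 3 spots with surrogate Cy5 (0.15, -0.33 and -0.70 with all spots) were left out by this setting, and with them in the gene was not called.

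Hist3h2ba, an H2B gene of the small Hist3 cluster, had 51 probes with ratios from -1.34 to 2.01. Its called probe read 2.14 with measured spots and the GC trend subtracted, and its nearest measured neighbour, 642 bp away, read 1.37. Relative to the matched start they lie at -3146 and -2504 bp, and the 3 spots between them had surrogate Cy5. With all spots the 2 neighbours of the called probe read -0.18 and -0.12.

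**Figure D2:**
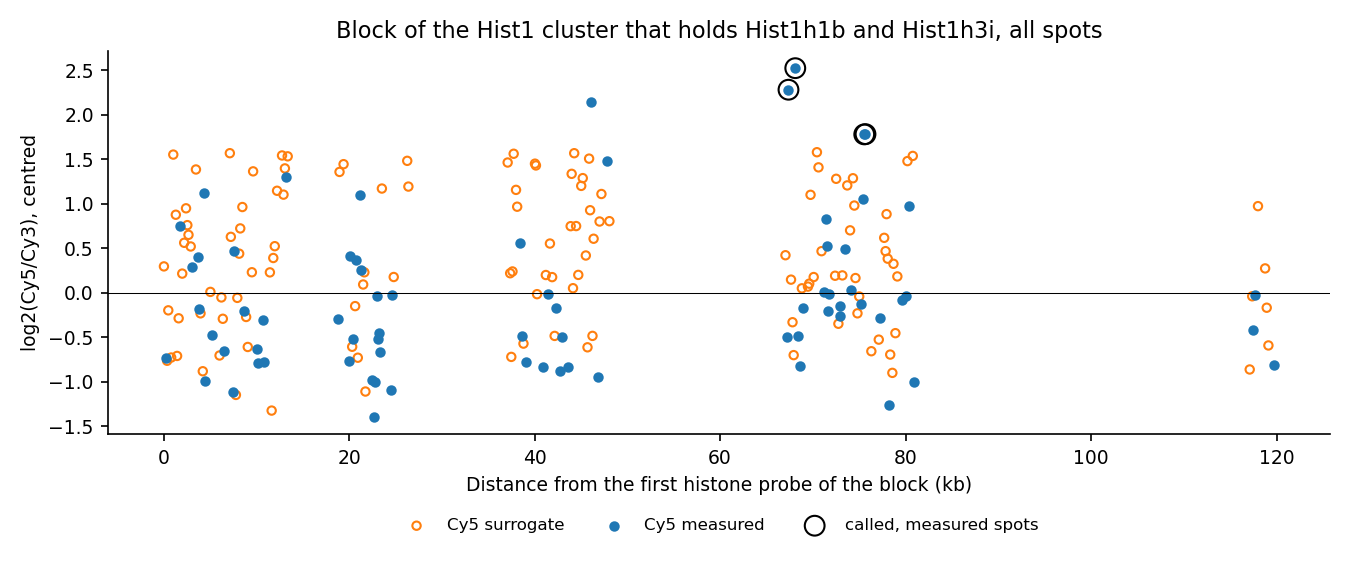
Centred log2 ratio (all spots) along the block of the Hist1 cluster that holds Hist1h1b and Hist1h3i, against distance from the first histone probe of the block in kb, for 200 probes of 13 gene names. Open points have surrogate Cy5, filled points measured Cy5, and rings mark the 4 probes called with measured spots, which lie in 2 groups, while the measured spots around them spread below and above 0.

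By histone type, the highest set mean of a gene was highest for H1 and lowest for H2A. With all spots the median over genes was 1.26 for H1 (6 genes), 0.34 for H2A (15 genes), 0.96 for H2B (17 genes), 0.68 for H3 (11 genes) and 0.98 for H4 (12 genes). With measured spots it was 0.68 for H1, -0.01 for H2A (14 genes), 0.27 for both H2B and H3, and 0.52 for H4. Over all genes of the arrays, the median was 1.21 on the first and 1.07 on the second with all spots, and 1.08 and 0.87 with measured spots. Thus every type except H1 lay below both arrays' medians with all spots, and all 5 did with measured spots. The H3 and H2A genes had few probes (medians of 7 and 8 per gene, against 28 for all genes of either array), and a gene with fewer probes has fewer sets to take the highest from. With measured spots on the second array, 30 histone genes had 3 to 9 probes and 8 had 10 or more. Of all genes there, 2306 had 3 to 9 and 5644 had 10 or more. The measured-spot medians are thus not matched for probe number.

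Among H1 genes, Hist1h1e (1.50 ± 0.06, SD over 3 probes) and Hist1h1a (1.48 ± 0.13, 2 probes) had the highest set means with all spots, each from surrogate spots only, and fell to 0.61 and 0.74 with measured spots. The lowest were Hist1h1d (0.73 ± 0.76) and Hist1h1t (1.04 ± 0.37), the second of which encodes the testis linker histone. Among H2A genes, Hist2h2ac (1.43 ± 1.17) and Hist1h2aa (1.43 ± 0.16, only surrogates) were highest, and with measured spots these read -0.06 and 0.46. Hist1h2ai (-0.39 ± 0.36) and Hist1h2ak (-0.52 ± 0.35) were lowest. Each of these lowest genes had 2 probes, both named jointly with an H2B gene.

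Among H2B genes, Hist1h2bn (1.53 ± 0.61) and Hist1h2bm (1.41 ± 0.17) were highest, and with measured spots these read 0.78 and -0.14. Hist1h2bh (-0.27 ± 0.39, 3 probes) and Hist1h2bg (-0.63 ± 0.29, a single probe named jointly with Hist1h2ae) were lowest. Among H3 genes, Hist1h3h followed Hist1h3i at 1.47 ± 1.02, and Hist1h3f (0.07 ± 0.07) and Hist2h3c2 (-0.13 ± 0.06) were lowest. Among H4 genes, Hist1h4b (1.52 ± 0.04) and Hist1h4j (1.34 ± 0.20) were highest, each from surrogate spots only, and with measured spots these read -0.06 and 0.85. The lowest H4 genes were Hist2h4 (0.52 ± 0.79) and Hist1h4m (0.41 ± 0.51).

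**Figure D3:**
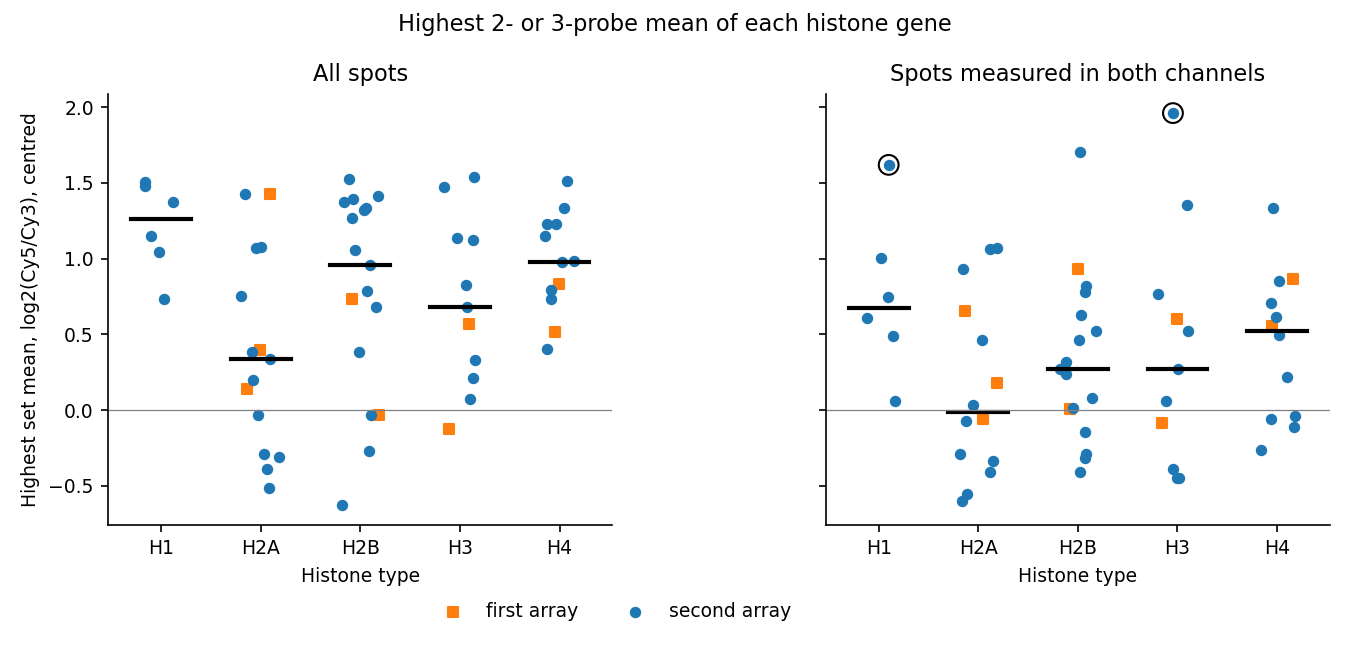
Highest set mean of each histone gene (centred log2 ratio, 1 point per gene, line at the median of the type) by histone type, with all spots on the left and with spots measured in both channels on the right; squares are genes of the first array, circles of the second, and rings mark called genes. The median of each type is lower on the right, and the 2 called genes, of H1 and H3, stand at 1.62 and 1.96.

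The Hist2 cluster occupies 53.2 kb of chromosome 3 with 8 named genes. Its 111 probes had a median of -0.25 with all spots and -0.21 over the 88 measured ones. With measured spots the highest set means were 0.93 for the H2B gene Hist2h2be, 0.65 for the H2A gene Hist2h2aa1, 0.60 for the H3 gene Hist2h3c1 and 0.56 for Hist2h4. Hist2h2ab (0.18), Hist2h2bb (0.01), Hist2h2ac (-0.06) and Hist2h3c2 (-0.09) were near 0. The all-spot mean of 1.43 for Hist2h2ac rested on 2 surrogate spots reading 2.01 and 2.20 at Cy3 signals of 50.5 and 44.0. With all spots kept and only the GC trend removed, this gene was called.

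Hist4h4, the H4 gene on chromosome 6, shares part of its probe names with H2afj, a replication-independent H2A gene. Its 22 probes had a median of -0.25, and the highest read 2.44. That probe lies 71 bp downstream of the matched H2afj start, while the H4 promoter probe itself, 172 bp upstream of the Hist4h4 start, was a surrogate spot at -0.34. Its highest set mean was 0.83 ± 1.40 with all spots, of 3 measured probes that include the one at 2.44.

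In the Hist3 cluster on chromosome 11, with measured spots the highest set mean was 1.70 for Hist3h2ba, 0.93 for the H2A gene Hist3h2a and 0.24 for Hist3h2bb. The first probe named Hist3h2ba lies 125 bp upstream of the matched start of another gene, Rnf187, and read 1.10. The 3 unnamed probes at 164 to 429 bp downstream of that start read 2.20, 2.48 and 2.45 and had a GC content of 71.1% to 73.3%. The next named probes into the histone cluster read -0.64, -1.34 and -1.34. Of the 3 unnamed probes, 2 were called with all spots, and no histone-named probe beside them was. With measured spots all 3 were called. With the GC trend also subtracted they read 1.33 to 1.60 and none was called, and the first Hist3h2ba probe read 1.30.

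Array names and matched starts did not always go together. Probe sequences were compared with RefSeq promoter windows (GRCm38.p6, from 250 bases before a gene's start to 50 after it), and a probe that lay wholly inside a window gave the position of that start in the array's own coordinates. Of the 61 genes, 48 had at least 1 such probe. Of 69 matches to the windows of these genes, 66 carried the same name on both sides. The other 3 exchange Hist2h2ab and Hist2h2ac, so the values of these genes are given under the array's names. Of the 100 probes named Hist1h3h, 4 lay nearest to its own matched start (median -0.47), and 96 lay between 22902053 and 23110806 on chromosome 13, beside the starts of other histone genes. Its highest set mean, 1.47, came from there, 1362 bp downstream of Hist1h2bh. No member probe (0 of 1013) shared a run of 30 bases with a probe of another gene.

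Within 250 bp of transcription starts, histone probes had lower medians than probes of other genes, with all spots and with measured spots. On the second array, probes from 250 bp upstream to the start had a median of 0.10 at other genes (8345 probes) and -0.36 at histone genes (48 probes). From the start to 250 bp downstream, other genes had a median of 0.18 and histone genes of 0.01 (19 probes). With measured spots the medians upstream were 0.28 and -0.33 (28 probes), and downstream 0.40 and -0.15 (15 probes). With the GC trend also subtracted the differences were smaller, at 0.14 and -0.15 upstream and 0.13 and -0.03 downstream. On the first array the upstream medians were 0.38 at other genes and -0.34 at histone genes, the latter over 5 probes only. Member probes reading -0.96 and -0.63 upstream of the matched start of H3c13, a RefSeq H3 gene that no member name matches, are not among these 5. The first-array downstream medians were 0.49 and -0.03 (2 probes). With measured spots and the GC trend subtracted they were 0.15 and 0.21 (2 probes). Farther downstream on the second array, at 250 to 500 bp, the difference was not seen. With measured spots the medians there were 0.15 at other genes and 0.19 at histone genes (13 probes). With the GC trend also subtracted they were -0.01 and 0.21. None of these differences has a replicate check.

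**Figure D4:**
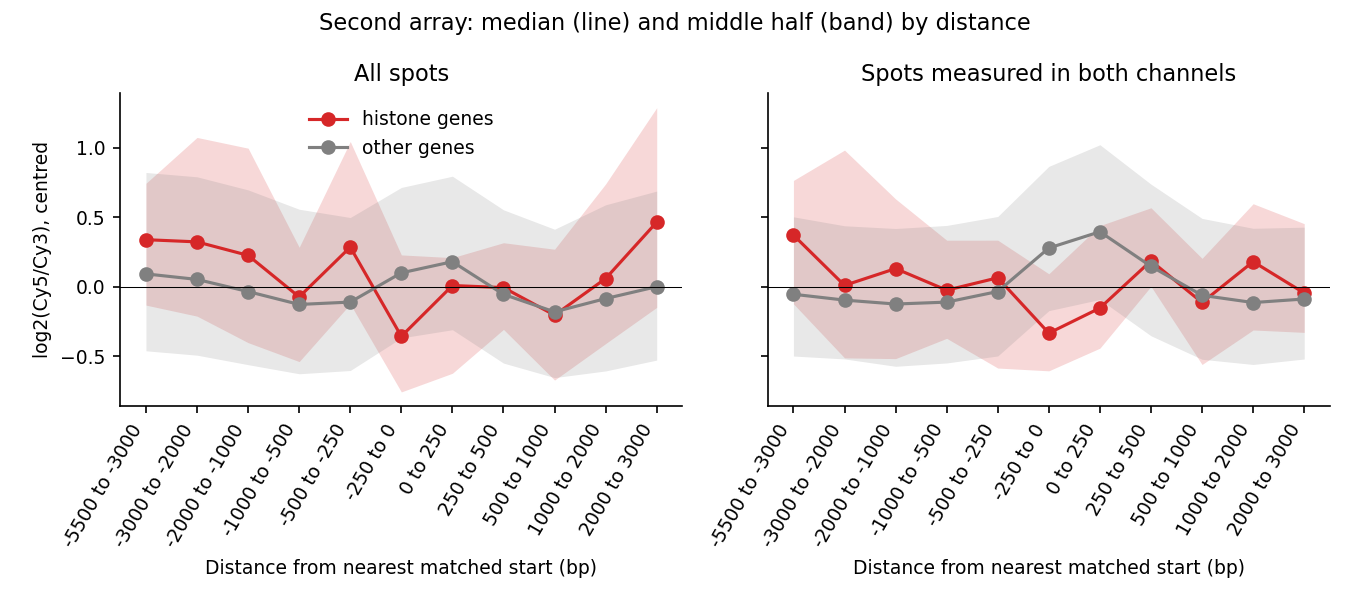
Median (line) and interquartile range (band) of the centred log2 ratio on the second array by distance from the nearest matched transcription start in bp, for histone genes and for other genes, with all spots (left) and measured spots (right). Other genes rise within 250 bp of the start, where the histone medians stay below those of other genes.

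Base composition differed between these probe groups. Probes inside histone promoter windows on the second array had a median of -0.38 (interquartile range -0.65 to 0.19, 56 probes, GC content 38.3%), and those inside other promoters a median of 0.15 (-0.33 to 0.77, 9175 probes, GC content 48.9%). Other promoter probes whose GC content lay between the 5th and 95th percentiles of the histone ones (32.9% to 46.2%) had a median of -0.15 (3779 probes). With measured spots the corresponding medians were -0.30 for histone promoters (34 probes), 0.34 for other promoters and -0.01 for those of like GC content. With the GC trend also subtracted, histone promoters had a median of -0.15 and other promoters one of 0.18 (0.16 for those of like GC content). With normexp correction the histone median was 0.00. The 5 first-array probes in promoter windows of the member genes read between -0.53 and -0.03. Other promoters there had a median of 0.46, and those of like GC content one of 0.01 (846 probes, 51.8% with surrogate Cy5). Member probes at -202.5 and -21.5 bp from the matched start of H3c13, a RefSeq H3 gene that no member name matches, are not counted among the 5. They had measured Cy5 and read -0.96 and -0.63. With measured spots the first-array medians were -0.25 for histone promoters (4 probes), 0.53 for other promoters and -0.18 for those of like GC content (297 probes).

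On the second array the median ratio of promoter probes was highest for H4 genes and, with all spots, lowest for promoters shared by an H2A and an H2B gene. The difference between types was not tested. On the first array the single H4 promoter probe, of Hist4h4, read -0.34 and the single H2B one -0.03. Of the 5 H4 promoter probes centred within 60 bases of a start, a distance chosen after the values were seen, all had measured Cy5 and all were above 0. Hist1h4a read 1.11, Hist1h4d 0.69, Hist1h4f 0.38, Hist1h4i 0.31 and Hist1h4h 0.28. None of these probes was called. The other 5 H4 promoter probes, farther upstream, ranged from -1.07 to 1.46, and 4 of them, at Hist1h4b, Hist1h4f, Hist1h4h and Hist1h4i, had surrogate Cy5. The median of all 10 H4 promoter probes was 0.32, and it was above 0 and the highest of the 5 types in every setting tried (0.15 to 0.76). Settings that changed only the calling rule could not alter it, and with measured spots only 6 H4 and 3 H1 probes remained.

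The 8 probes in promoters shared by an H2A and an H2B gene read between -0.90 and -0.47 on the second array, with a median of -0.82. The 10 H4 promoter probes spanned -1.07 to 1.46, so the groups overlapped. The lowest was that of Hist1h2ae and Hist1h2bg at -0.90, followed by Hist1h2ak and Hist1h2bn at -0.88. Those of Hist1h2ah with Hist1h2bk and of Hist1h2aa with Hist1h2ba both read -0.86. With measured spots the median was -0.68 (7 probes), with the GC trend also subtracted -0.52, and with normexp correction -0.11. All 26 H2A and H2B promoter probes of the second array had a median of -0.63, and 14 of them lay within 60 bases of a start, of which 3 were above 0, at Hist1h2bb (0.36), Hist1h2ba (0.12) and Hist1h2bl (0.01).

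H1 promoters held both high and low probes. The lowest promoter probe of all histone genes was that of Hist1h1t, at -1.14 and 22 bp after the start, and its other promoter probe read -0.87. Hist1h1a read -0.63, while Hist1h1b, Hist1h1c, Hist1h1d and Hist1h1e lay between 0.07 and 0.55, 5 of their 6 probes with surrogate Cy5. The H1 median of 0.10 over 9 probes became -0.44 over the 3 measured ones. H3 promoters had a median of -0.28 (11 probes), and the 5 within 60 bases of a start lay between -0.65 and -0.07. The H3 median rose to 0.08 with normexp correction.

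**Figure D5:**
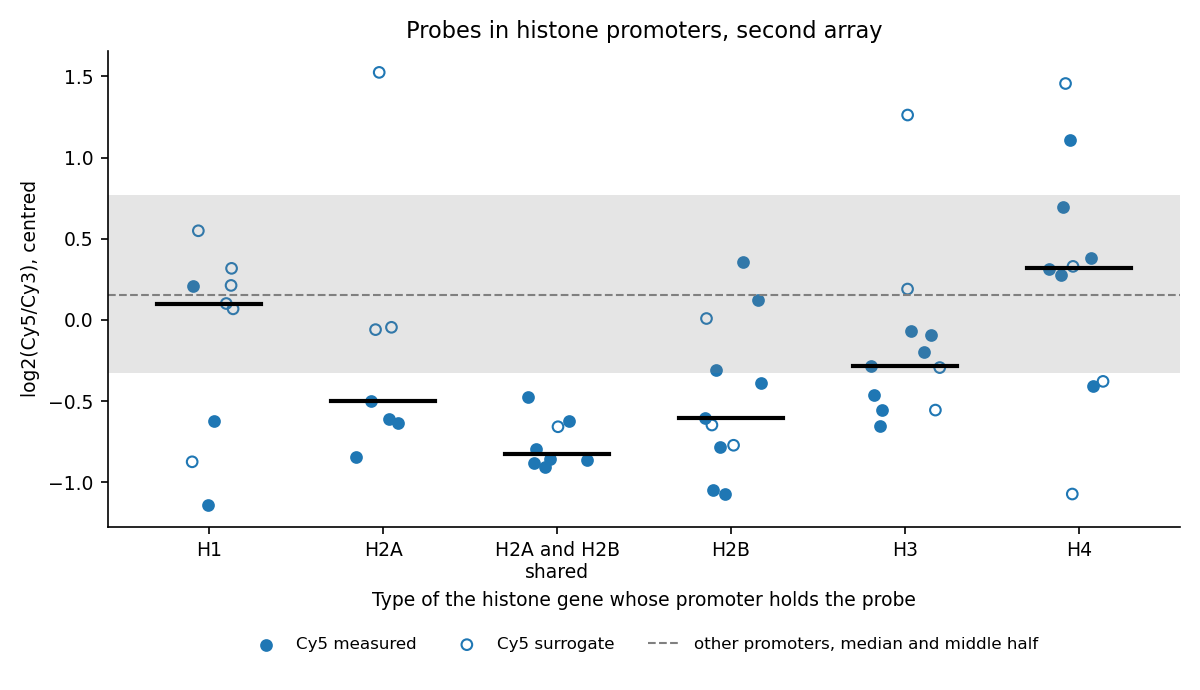
Centred log2 ratio of each second-array probe inside a histone promoter window, by the type of the gene, with filled points for measured Cy5, open points for surrogate Cy5, black lines at the medians, and the median and interquartile range of 9175 probes in other promoters in grey. The 8 probes of promoters shared by an H2A and an H2B gene all lie at or below -0.47, and the H4 median is 0.32.

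The promoters below, chosen after their values were seen, are shown from RefSeq (GRCm38.p6), 5′ to 3′ on the gene's strand. Hist1h4a and Hist1h4d had the highest H4 probes within 60 bases of a start. Hist1h2ae had the lowest shared-promoter probe and Hist1h1t the lowest promoter probe. They are not the extremes of all promoters: a probe of Hist1h2ab read 1.53 (surrogate Cy5) and one of Hist1h2be -1.07. Capitals mark a Tcf/Lef core, the octamer ATTTGCAT, which is a known element of H2B promoters, the CCAAT box or the TATA box sequence TATAAA, on either strand.
Hist1h4a, chr13:23761200-23761499, minus strand: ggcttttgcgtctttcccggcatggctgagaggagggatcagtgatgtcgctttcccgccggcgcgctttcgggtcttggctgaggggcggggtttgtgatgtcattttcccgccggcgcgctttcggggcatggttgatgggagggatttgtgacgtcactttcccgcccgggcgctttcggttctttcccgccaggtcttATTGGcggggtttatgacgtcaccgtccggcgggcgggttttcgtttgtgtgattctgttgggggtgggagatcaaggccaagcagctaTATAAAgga
Hist1h4d, chr13:23581318-23581617, plus strand: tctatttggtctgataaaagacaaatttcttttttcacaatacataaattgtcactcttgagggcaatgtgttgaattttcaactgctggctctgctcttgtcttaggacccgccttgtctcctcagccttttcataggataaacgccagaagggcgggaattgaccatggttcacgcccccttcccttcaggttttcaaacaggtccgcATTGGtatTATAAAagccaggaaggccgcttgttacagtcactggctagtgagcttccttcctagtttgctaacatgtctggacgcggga
Hist1h2ae, shared with Hist1h2bg, chr13:23571171-23571470, minus strand: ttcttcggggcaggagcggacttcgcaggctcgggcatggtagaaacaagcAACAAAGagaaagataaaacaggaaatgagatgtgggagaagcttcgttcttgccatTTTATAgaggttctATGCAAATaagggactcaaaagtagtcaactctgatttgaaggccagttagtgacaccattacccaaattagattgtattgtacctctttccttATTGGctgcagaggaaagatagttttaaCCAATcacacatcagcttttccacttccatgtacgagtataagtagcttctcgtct
Hist1h1t, chr13:23695561-23695860, plus strand: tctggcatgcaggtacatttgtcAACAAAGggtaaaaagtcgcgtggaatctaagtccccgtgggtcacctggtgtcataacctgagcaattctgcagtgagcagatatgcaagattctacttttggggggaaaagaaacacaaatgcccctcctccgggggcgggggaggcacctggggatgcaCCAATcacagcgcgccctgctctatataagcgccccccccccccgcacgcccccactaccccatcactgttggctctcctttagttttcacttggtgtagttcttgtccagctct

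A Tcf/Lef core occurred in 15 of the 55 histone genes with a RefSeq promoter (27.3%), against 16.9% of all 32851 promoter windows of this length. By type it was found in 0 of 11 H4 genes, 7 of 14 H2B genes, 5 of 15 H2A genes, 2 of 9 H3 genes and 1 of 6 H1 genes. Among the promoters shown, Hist1h2ae and Hist1h1t, with some of the lowest ratios, hold 1 each, and Hist1h4a and Hist1h4d hold none. Other promoters went the other way. Hist1h2ak and Hist1h2bn, whose shared probe read -0.88, hold none, while Hist1h3b, with probes at 1.26 (surrogate Cy5) and -0.28, has a core. A relation between core and promoter ratio was not tested. Head-to-head H2A and H2B genes share part of their windows, so these genes are not independent counts.

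The octamer occurred in 7 of 15 H2A and 7 of 14 H2B genes and in 0 of the other 26, against 1.74% of all windows. The CCAAT box occurred in all 44 H1, H2A, H2B and H3 genes and in 3 of 11 H4 genes, against 37.4% of all windows. TATAAA occurred in 61.8% of the histone genes, against 13.6% of all windows, and was found in every type, from 4 of 9 H3 genes to 11 of 15 H2A genes. Occurrences of 2 of these motifs overlapped in 3 of the 56 histone windows read. A match describes these letters only.

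Histone probes with and without a Tcf/Lef core had overlapping ratios. On the second array the 68 histone probes with a core (7.73%, against 5.70% of the other probes) had a median of 0.06, and the 812 without it 0.08. With measured spots these medians were -0.28 (17 probes) and 0.06 (263 probes). On the first array they were -0.31 (12 probes) and -0.25 (121 probes) with all spots, and -0.16 (8 probes) and -0.21 (95 probes) with measured spots.

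Some probes carry the names of 2 genes joined by a hyphen. On the second array the 49 histone probes with a joined name had a median of -0.39, against 0.12 for the 831 with 1 name, and the 15 that join an H2A with an H2B gene had a median of -0.65. On the first array the 33 probes that join 2 different genes had a median of -0.55, and the 80 with 1 name had -0.19. Another 20 probes there carry the name Hist2h2aa1 on both sides of the hyphen.

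Genes that regulate or resemble the histone clusters were read from lists of regulators of histone mRNA, replication-independent variants and histone chaperones. Among the regulators, 1 of the 12 with probes was called in the all-spot analysis, 4 among measured spots and 2 after the GC correction of these, against backgrounds of 12.8%, 13.1% and 12.7% of genes. The list's median highest set mean was 1.12 with all spots and 1.16 with measured spots, against medians over all genes of 1.21 and 1.07, and of 1.08 and 0.87, on the 2 arrays. Ccne2, an S phase cyclin, was called with all spots (2.22 ± 1.02, SD over 3 probes of 68.9% GC content) and lost the call with the GC trend subtracted. Casp8ap2 (FLASH), needed for histone message processing, had a set mean of 2.46 ± 1.05 over 2 measured probes and 2.79 with the GC trend subtracted. Cpsf2, a subunit of the cleavage machinery, had 1.71 ± 0.57 and 1.88. Lsm11, of the U7 snRNP, was called with measured spots only (1.43 ± 0.72).

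Among the replication-independent variants, 2 of 14 were called in the all-spot analysis, 4 among measured spots and 0 after their GC correction, against the same backgrounds of 12.8%, 13.1% and 12.7% of genes. Their median highest set mean was 1.17 with all spots and 1.15 with measured spots. H1fx (1.84 ± 1.34), H3f3b (1.69 ± 0.45), H3f3a (1.68 ± 1.52) and H1f0 (1.52 ± 1.52) were those called with measured spots, at a mean GC content of the set from 60.7% to 63.1%. Their cluster counterparts in the H1 and H3 families, Hist1h1b and Hist1h3i, were called at sets of 42.0% and 34.2% GC content. Of the 12 chaperones with probes, none (0) was called in the all-spot analysis, 1 among measured spots (Nap1l4, 1.59 ± 0.81) and 2 after their GC correction (Asf1a, 1.31 ± 0.74, and Atrx, 1.30 ± 0.84), against 12.8%, 13.1% and 12.7% of all genes. Their median highest set mean was 1.07 with all spots and 1.06 with measured spots.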

How the data were processed

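Scanner files of 2 arrays were used. Per the file headers, Agilent Feature Extraction 9.1.1.1 produced the deposited intensity of each channel, with background subtraction, detrending and linear dye normalization, as well as a deposited log10 ratio per spot. The genome build behind the probe positions is unstated in the sources.

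From the deposited intensities, log2 ratios of Cy5 over Cy3 were taken and centred on each array's median over non-control spots, without spots marked non-uniform. Scatter was estimated from values below 0 (from set means, separately for sets of 2 and 3 probes). Calling required a one-sided normal tail below 0.001 for the set mean. It also required a tail below 0.001 for the probe plus one below 0.1 for a neighbour, or tails below 0.005 for 2 probes. The rule was also run on simulated normal scatter with planted regions. That simulation held no surrogate spots and no GC trend, so it cannot show how these affect the calls. These probabilities served as a calling rule only. Measured spots are those well above background in both channels with no surrogate. The GC trend is the median per bin of 2% GC content. Sequences of 45 to 60 bases were matched exactly, on either strand, to RefSeq windows of 300 bases. All 61 gene names matched that table as older symbols.

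Named genes are every member called in the all-spot analysis or among measured spots, before or after GC correction, the 2 highest and 2 lowest of each type by highest set mean, all members of the Hist2, Hist3 and Hist4 clusters, and every called gene of the lists. Genes named for their promoter probes, names or calls under other alternatives were chosen after their values were seen. The members and lists were chosen with earlier results of these data known. Python 3.11.15, pandas 2.3.3, numpy 2.4.6 and, for normexp, limma 3.58.1 were used. Alternatives covered spot filters, GC content, the deposited log10 ratio, normexp with an offset of 50, and the calling rule. The series value table, which holds the error of the log10 ratio, was not used.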

Additional observations from a re-analysis of the deposited data

How the results depend on the processing

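The number of called histone genes, 0 with all spots, was 2 with measured spots (13.1% of all genes called), 1 with input well above background (12.0%), 1 with the GC trend subtracted (10.5%), 2 with measured spots and the GC trend subtracted (12.7%), 8 with normexp (49.3%) and 1 at a set probability of 0.01 (16.4%). The 8 were Hist1h1a, Hist1h1c, Hist1h2bm, Hist1h3h, Hist1h3i, Hist1h4a, Hist1h4c and Hist3h2ba. By type, measured spots gave H1 1 and H3 1 (Hist1 2); input well above background H3 1 (Hist1 1); the GC trend, and likewise the set probability of 0.01, H2A 1 (Hist2 1); measured spots with the GC trend H1 1 and H2B 1 (Hist1 1, Hist3 1); and normexp H1, H2B, H3 and H4 2 each (Hist1 7, Hist3 1). The median highest set mean of second-array histone genes, 0.98, was 0.27 with measured spots, 0.36 with the GC trend also subtracted and 0.12 with the deposited log10 ratio. The median of first-array promoter probes, -0.34, became -0.011 with measured spots and the GC trend subtracted and -0.0025 with normexp, and that of second-array H2A and H2B promoter probes, -0.63, became -0.042 with normexp. The cause was not tested. Among these counts and medians, the other 209 comparisons with an alternative stayed within the stated limits (1.5 times for counts, 1 SD over probes or genes for medians). Some of them were fixed in advance, because alternatives that changed only the calling rule could not change a median of probe ratios. Leaving out member probes with shared sequence left out none. No paired analysis was possible because the arrays carry different probes and each group holds 1 array, so no replicate could be left out either. Each array is 1 hybridisation; surrogate Cy5 at most second-array histone probes, and few probes for many H2A genes, limit what could be detected there.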
